A study of Homo sapiens with 24 samples.

Results

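The 10 integrin genes described here were chosen by name from the 36468 entries of a gene count table: ITGA11, ITGA10, ITGA1 and ITGA2, which encode the alpha chains of the collagen receptors, ITGB1, which encodes the beta chain that all of these alpha chains pair with, and ITGAV with ITGB3, ITGB5, ITGB6 and ITGB8, which encode the alpha-v chain and its other beta partners. All 10 had a single entry and passed the minimum of 10 reads over the libraries of each comparison. The 24 libraries came from polyadenylated RNA of sensory neuron cultures that had been differentiated from H9WAO9, an unmodified (WT) human pluripotent stem cell line, through vagal neural crest spheroids. They covered 6 differentiation batches, and every batch gave 1 library for each of 4 treatments: vehicle, TGF-β, IL-6 and IL-4 + IL-13. Matured cultures were exposed for 5 days to TGF-β at 2 ng/ml, to IL-4 at 10 ng/ml with IL-13 at 3 ng/ml, or to the solvent alone (PBS with bovine serum albumin). The dose and duration of IL-6 are not given in the sources used here. All libraries derive from 1 cell line, so the spread between batches is a spread between differentiations and not between donors.

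Integrins are receptors built of 1 alpha and 1 beta chain that join the matrix outside a cell to the actin skeleton inside it. The collagen receptors bind collagen through an inserted domain of the alpha chain. The alpha-11 chain mainly binds fibrillar collagen and is best known from fibroblasts, whereas the alpha-1 chain prefers the collagen of basement membranes. The alpha-v receptors recognise a short Arg-Gly-Asp (RGD) motif, which is present in fibronectin, vitronectin and the propeptide that keeps TGF-β latent. Through that propeptide, the receptors with the beta-6 or the beta-8 chain release TGF-β activity, and integrins with the beta-3 or beta-5 chain have been linked to the same step.

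The libraries held between 33342682 and 39817784 counted reads. All 11 neuron markers were detected in each treatment group, and so were all 10 mesenchymal and all 8 glial markers, so the cultures were mixtures. The tissue label reads "Stem cells", but the pluripotency genes POU5F1 and NANOG averaged under 10 reads in every group. The other 2 genes of the pluripotency list were detected, DPPA4 at group means of 573 to 814 normalised counts and LIN28A at 61.0 to 76.2. In a mixed bulk sample, a change in the number of cells of a type and a change in RNA per cell cannot be told apart. Batch 1 stood apart: its neuron markers summed to 66999 normalised counts in the vehicle library, against 146384 to 405496 in the vehicle libraries of batches 2 to 6. The vehicle libraries of batches 2 and 4 each correlated better with the other groups of the other batch (mean r of 0.270 and 0.282) than with those of their own (0.018 and 0.093), after subtraction of the group means. Whether these 2 libraries carry the right batch was not tested, and comparisons with vehicle, vehicle levels, shares and marker sums are also given without them. In batch 4, the library of IL-4 + IL-13 and that of TGF-β were likewise closer to the other groups of batch 3 (mean r of 0.357 and 0.380) than to those of their own batch (0.208 and 0.256), while the other 20 libraries were closest to their own batch. Without batch 4, the same 5 members were called in the direct comparison of TGF-β with IL-4 + IL-13.

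Integrin levels in the vehicle cultures came first. To compare genes, normalised counts (counts divided by a library size factor) were divided by the transcript length in kb. On the scale of log2(normalised counts per kb + 1), ITGB1 was the most abundant member at 12.36 ± 0.58 (SD, n = 6 batches), followed by ITGAV at 10.90 ± 0.70, ITGB5 at 9.63 ± 0.57 and ITGA11 at 8.58 ± 0.81. In each of the 6 batches ITGB1 was above ITGAV, ITGAV above ITGB5 and ITGB5 above ITGA11. The next 3 genes were ITGB8 at 7.57 ± 0.41, ITGB6 at 7.51 ± 0.71 and ITGA1 at 7.12 ± 0.59, and their order changed between batches, with ITGB8 above ITGB6 in 4 of 6 and ITGB6 above ITGA1 in 4 of 6. ITGA2 (5.81 ± 0.62) and ITGB3 (5.64 ± 0.92) could not be ranked, as ITGA2 was the higher in 3 of 6 batches. ITGA10 had the lowest mean, 4.23 ± 0.73. Without the vehicle libraries of batches 2 and 4 the first 4 genes kept their order in 4 of 4 batches, and ITGB6 was above ITGB8 in 2 of 4. ITGA11 was thus the most abundant of the collagen-binding alpha chains, and ITGB5 the most abundant of ITGB3, ITGB5, ITGB6 and ITGB8.

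**Figure D1:**
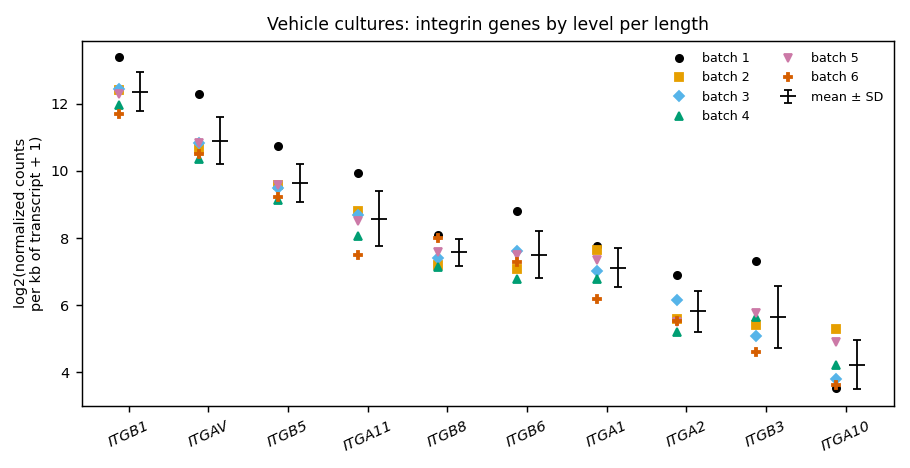
Level of each integrin gene in the 6 vehicle libraries, as log2(normalised counts per kb of transcript + 1) on the vertical axis. Symbols mark the batch and bars give the mean ± SD; batch 1 (black) was highest for ITGB1, ITGAV, ITGB5 and ITGA11, and ITGB1 lay above ITGAV in every batch.

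The comparisons asked how exposure to each cytokine altered these genes in cultures of the same batch. A gene was called when its edgeR quasi-likelihood p, adjusted over all genes by the Benjamini-Hochberg method, was under 0.05. Of the 10 members, 0 were called for TGF-β against vehicle, where 0.0418% of the 28701 genes tested were called. DESeq2 called ITGA11 in that comparison and 1.03% of the genes. A single member, ITGA11, was called for IL-4 + IL-13 against vehicle, where the share over all genes was 0.324%, and 0.0976% in the same direction. For IL-6 against vehicle edgeR called 0 members and 0% of 29377 genes, whereas at an unadjusted p below 0.05 there were 1400 genes (4.77%), ITGA2 among them. By DESeq2, 132 genes (0.449%) but no member passed for IL-6. When TGF-β was set directly against IL-4 + IL-13, 5 members were called, ITGA11, ITGB6, ITGA2, ITGB1 and ITGAV, all higher with TGF-β, where 0.665% of all genes were called in that direction and 1.83% in either. The median log2 fold change over the 10 members was 0.56 in this direct comparison, beside -0.003 over all genes tested. The comparisons with vehicle share the vehicle libraries.

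**Figure D2:**
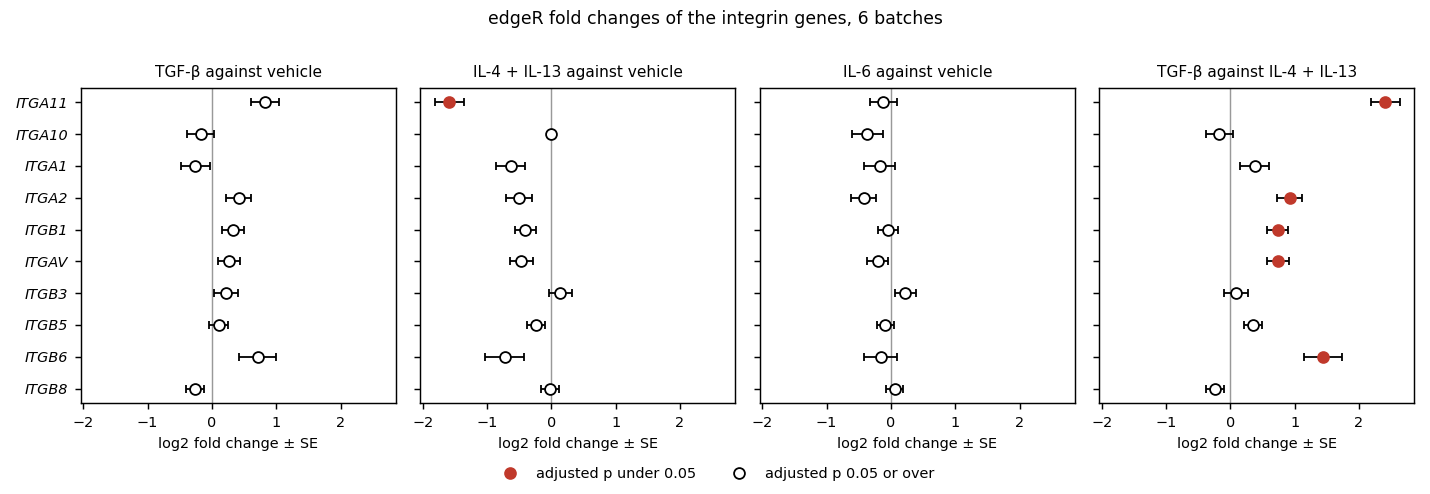
Log2 fold change ± SE of the 10 genes in 4 comparisons, from edgeR with batch as a term. Filled points passed an adjusted p of 0.05: ITGA11 for IL-4 + IL-13 against vehicle, and ITGA11, ITGA2, ITGB1, ITGAV and ITGB6 for TGF-β against IL-4 + IL-13; ITGA10 has no bar for IL-4 + IL-13 against vehicle, where its change was too close to 0 for an SE.

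ITGA11, the alpha chain of the fibrillar collagen receptor, lies at chr15:68296532-68432163 (GRCh38.p14, minus strand) and overlaps no other annotated gene. Vehicle libraries held a lowest, median and highest of 1835, 3941 and 9908 normalised counts of ITGA11. Those of TGF-β held 3634, 7206 and 15556. Those of IL-4 + IL-13 held 658, 1443 and 2212. Every TGF-β library was above every IL-4 + IL-13 library, whereas both groups overlapped with vehicle, as all members did. Such overlap with vehicle was absent for 0.0627% of all genes with TGF-β, 0.289% with IL-4 + IL-13 and 0.0374% with IL-6. In IL-6 cultures the values were 2039, 3854 and 7821, within the range of the vehicle libraries.

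Within a batch the order was the same each time: TGF-β was the highest and IL-4 + IL-13 the lowest of the 4 cultures for ITGA11 in 6 of 6 batches. No other member kept this order in more than 5 of 6 batches at either end. With IL-4 + IL-13, ITGA11 fell by 1.59 (log2) (SE 0.23, edgeR adjusted p = 0.00878), to 0.333 of its vehicle level, and the difference in log2(normalised counts + 1) ranged from -2.56 to -0.30 between batches. With TGF-β its log2 fold change was 0.82 (SE 0.22) with an edgeR adjusted p of 0.286, and it was higher than vehicle in 6 of 6 batches by 0.13 to 1.67 in level. DESeq2 gave this TGF-β difference an adjusted p of 0.0370. Between TGF-β and IL-4 + IL-13, ITGA11 differed by a log2 fold change of 2.41 (SE 0.23, edgeR adjusted p = 2.82e-04), or 5.31-fold. ITGA11 was the only member whose levels in these 2 groups did not overlap, a separation found in 0.334% of the genes tested. The study picked ITGA11 from these same libraries, so its values here are not independent evidence.

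The direct difference of ITGA11 held with each batch left out, at log2 fold changes of 2.28 to 2.52 and edgeR adjusted p from 1.72e-04 to 0.0104. The fall with IL-4 + IL-13 ranged from -1.83 to -1.40 and lost its call without batch 5 (edgeR adjusted p = 0.0952) or batch 6 (0.0682). Without the vehicle libraries of batches 2 and 4 it was -1.63 (edgeR adjusted p = 0.00318), and the TGF-β difference was 0.80 (0.177). In batches 3 to 6 alone it was -1.13, with an edgeR adjusted p of 0.0517.

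**Figure D3:**
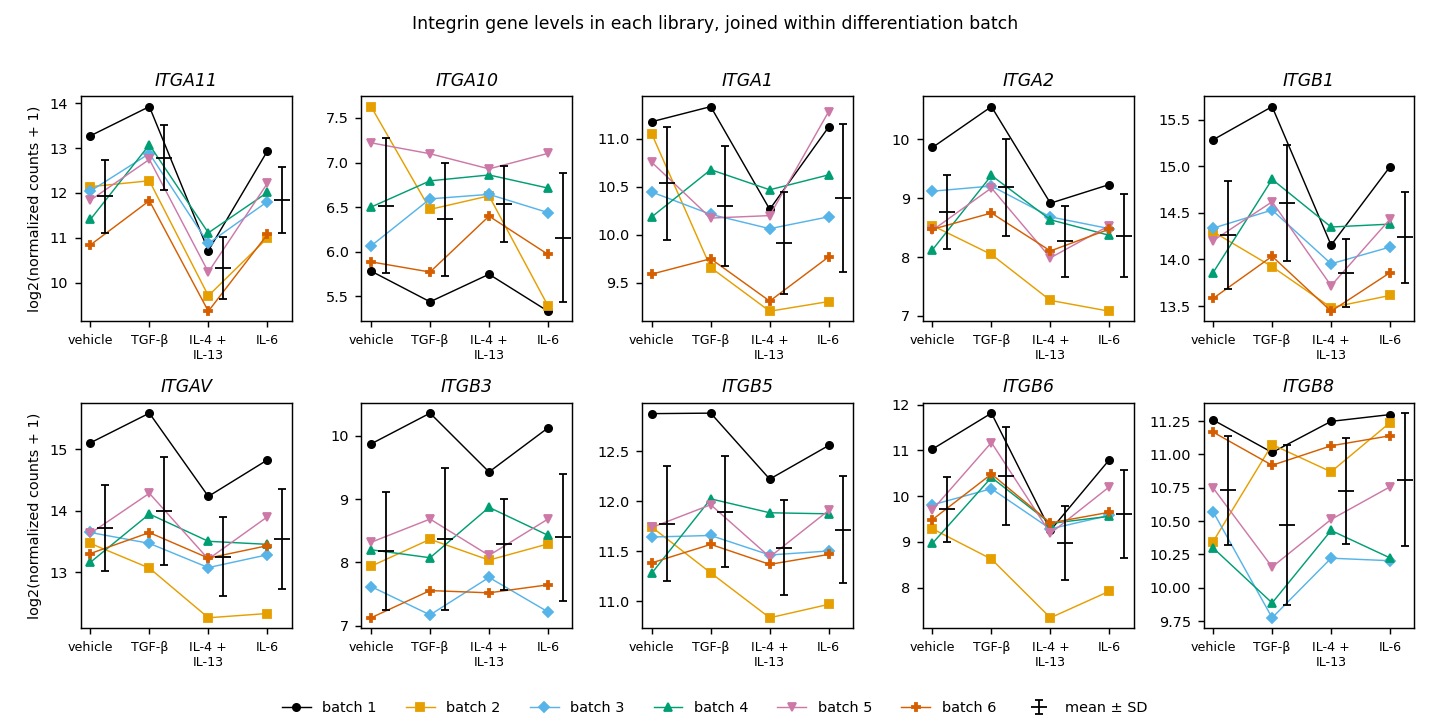
Level of the 10 genes in every library as log2(normalised counts + 1), with the libraries of a batch joined by a line and the mean ± SD of the 6 libraries beside them; each panel has its own vertical range. For ITGA11 every line peaks at TGF-β and is lowest at IL-4 + IL-13, while batch 2 (orange) runs low for ITGA2, ITGAV, ITGB5 and ITGB6 in the cytokine cultures.

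The other collagen-binding alpha chains had smaller log2 fold changes in the direct comparison, of which only that of ITGA2 passed. ITGA2, best known as the collagen receptor chain of platelets and epithelia, had medians of 362 normalised counts in vehicle (278 to 931), 584 with TGF-β (263 to 1508) and 335 with IL-4 + IL-13 (152 to 482). The 3 ranges overlapped. Within batches, TGF-β was above IL-4 + IL-13 in 6 of 6, and ITGA2 differed by a log2 fold change of 0.92 (SE 0.20, edgeR adjusted p = 0.0288). Its changes against vehicle, 0.42 with TGF-β and -0.51 with IL-4 + IL-13, had edgeR adjusted p of 0.833 and 0.575. ITGA1, the chain of the basement membrane collagen receptor, had log2 fold changes of -0.26 with TGF-β (edgeR adjusted p = 0.996), -0.63 with IL-4 + IL-13 (0.507) and 0.38 between the cytokine groups (0.656). With each batch left out, its value ranged from -0.38 to -0.0028 with TGF-β and from -0.80 to -0.36 with IL-4 + IL-13, the value nearest to 0 being that without batch 2 in both. Other annotated genes overlap ITGA1, PELO among them, and the strand setting of the counting is not given in the sources used here, so reads of these genes may be included. ITGA10, known from cartilage, stayed between 37 and 201 reads in every library, with a log2 fold change of -0.17 between the cytokine groups (edgeR adjusted p = 0.917).

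In terms of composition, ITGA11 made up 63.7% ± 5.56 (SD, n = 6) of the length-corrected counts of the 4 collagen-binding alpha chains in vehicle libraries. It made up 76.6% ± 2.92 with TGF-β and 46.0% ± 5.75 with IL-4 + IL-13. Compared with vehicle of the same batch, the share was 12.9 percentage points higher with TGF-β in 6 of 6 batches, and it fell by 17.7 points with IL-4 + IL-13 in 6 of 6. ITGA1 took 16.4 to 27.2% in vehicle and 11.7 to 15.9% with TGF-β, and reached 38.6% with IL-4 + IL-13. Even where ITGA11 was lowest, with IL-4 + IL-13, its mean share was above the 32.6% of ITGA1. With IL-6, ITGA11 made up 66.2% ± 5.02. Without the vehicle libraries of batches 2 and 4, the share of ITGA11 was 11.2 points higher than vehicle with TGF-β in 4 of 4 batches and fell by 20.3 points with IL-4 + IL-13 in 4 of 4. These shares carry no test of their own and restate the levels of the same libraries relative to each other.

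**Figure D4:**
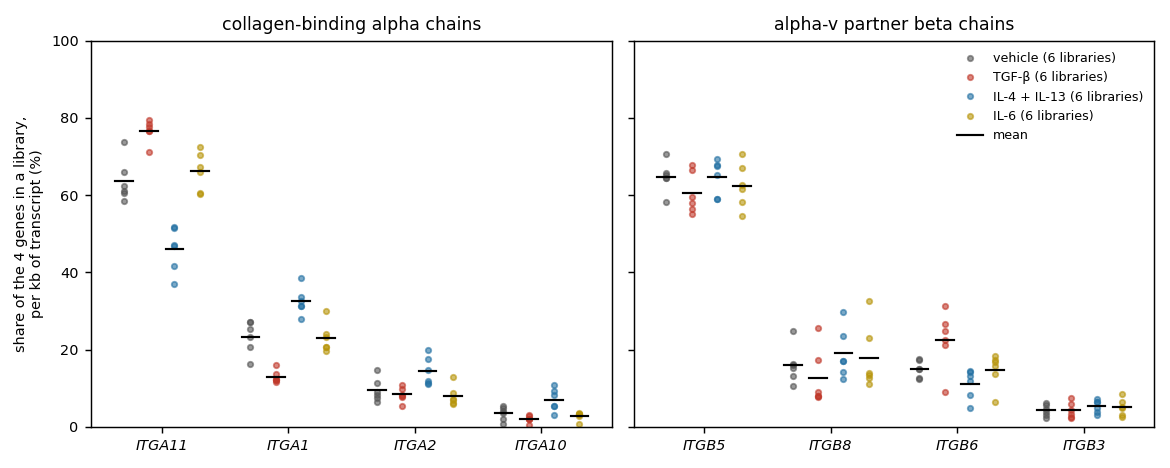
Share of each gene, in percent of the length-corrected counts of its family, for the 4 collagen-binding alpha chains and for the 4 beta chains that pair with alpha-v; points are the 6 libraries of a group and lines their means. ITGA11 separates TGF-β (71.1 to 79.4%) from IL-4 + IL-13 (37.0 to 51.9%), and ITGB5 holds the largest mean share of the beta chains in all 4 groups.

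ITGB1, the shared beta chain of the collagen receptors and of many other integrins, had medians of 19492 normalised counts in vehicle (12268 to 39903), 24409 with TGF-β (15527 to 51062) and 14674 with IL-4 + IL-13 (11149 to 20855). The groups overlapped, and batch 1 supplied the highest vehicle and TGF-β values. TGF-β was above IL-4 + IL-13 in 6 of 6 batches, with a log2 fold change of 0.74 (SE 0.17, edgeR adjusted p = 0.0399). Against vehicle, ITGB1 had log2 fold changes of 0.33 with TGF-β (edgeR adjusted p = 0.874) and -0.41 with IL-4 + IL-13 (0.602).

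ITGAV, which encodes the alpha chain of the TGF-β-activating receptors, differed between TGF-β and IL-4 + IL-13 by a log2 fold change of 0.74 (SE 0.17, edgeR adjusted p = 0.0467). Its medians were 12010 normalised counts in vehicle (9156 to 35238), 14292 with TGF-β (8579 to 49250) and 9548 with IL-4 + IL-13 (4897 to 19257). TGF-β was higher than IL-4 + IL-13 in 6 of 6 batches, but higher than vehicle in 4 of 6, and the groups overlapped. Neither comparison with vehicle passed, at 0.27 for TGF-β (edgeR adjusted p = 0.960) and -0.46 for IL-4 + IL-13 (0.532).

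Among the beta partners of alpha-v, ITGB6 had the widest difference. The beta-6 chain is mostly an epithelial protein, and with alpha-v it binds and opens latent TGF-β. Vehicle libraries held a lowest, median and highest of 500, 774 and 2090 normalised counts of ITGB6. With TGF-β the values were 394, 1396 and 3607, and with IL-4 + IL-13 they were 161, 616 and 682. The lowest TGF-β and the lowest IL-4 + IL-13 values both came from batch 2, and these 2 groups overlapped only through that batch. ITGB6 was higher in TGF-β than in IL-4 + IL-13 cultures in 6 of 6 batches, with a log2 fold change of 1.44 (SE 0.30, edgeR adjusted p = 0.0257), or 2.71-fold. Against vehicle its values were 0.71 with TGF-β (edgeR adjusted p = 0.718, higher in 5 of 6 batches) and -0.73 with IL-4 + IL-13 (0.602, lower in 5 of 6 batches). The 6 epithelial markers summed to 8215 to 38894 normalised counts with TGF-β and 8196 to 20273 with IL-4 + IL-13, with the largest vehicle and TGF-β sums in batch 1, and 0 of the 6 were called. The keratins KRT8 and KRT18 make up most of that sum. CDH1, the adhesion protein E-cadherin of epithelia, named here after its values were seen, had log2 fold changes of -1.82 with IL-4 + IL-13 (edgeR adjusted p = 0.0649, lower in 6 of 6 batches) and 1.26 in the direct comparison (0.125, higher in 6 of 6). With TGF-β its mean level was 7.13 in log2(normalised counts + 1), below the 7.62 of vehicle. CDH1 does not stand for the list: over the 6 markers the median log2 fold change was -0.21 with IL-4 + IL-13. In the direct comparison that median was 0.12. The part of these markers in the ITGB6 difference was not tested.

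ITGB8, whose product also activates latent TGF-β and is known from glia and neural tissue, had a mean level of 10.73 ± 0.41 in vehicle, 10.47 ± 0.60 with TGF-β, 10.72 ± 0.40 with IL-4 + IL-13 and 10.81 ± 0.50 under IL-6, in log2(normalised counts + 1) with n = 6. Its log2 fold change with TGF-β was -0.26 (SE 0.14, edgeR adjusted p = 0.913), lower in 5 of 6 batches, with batch 2 as the exception. Without batch 2 it was -0.46 (edgeR adjusted p = 0.109), and without the vehicle libraries of batches 2 and 4 it was -0.44 (0.172). Between TGF-β and IL-4 + IL-13 the value was -0.24 (edgeR adjusted p = 0.656), and in batches 3 to 6 alone it passed at -0.38 (0.0460). An antisense gene, ITGB8-AS1, overlaps this gene, and the reads of both cannot be separated without strand information.

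ITGB5 and ITGB3, the beta chains of the vitronectin receptors, did not pass in any comparison of the main fits. ITGB5 had a log2 fold change of 0.35 in the direct comparison (SE 0.14, edgeR adjusted p = 0.362) and was higher with TGF-β in 6 of 6 batches, and without the vehicle libraries of batches 2 and 4 it passed at 0.35 (edgeR adjusted p = 0.0157). ITGB3 had log2 fold changes of 0.22 with TGF-β, 0.14 with IL-4 + IL-13 and 0.08 between them. By share of the length-corrected counts of the 4 beta chains, ITGB5 took 64.8% ± 4.01 in vehicle and ITGB6 14.9% ± 2.23. ITGB6 took 22.6% ± 7.50 with TGF-β and 11.1% ± 3.79 with IL-4 + IL-13, the latter below vehicle in 6 of 6 batches. The share of ITGB8 in TGF-β cultures differed from that in IL-4 + IL-13 cultures by -6.45 percentage points, with the same sign in 6 of 6 batches. The shares of the 4 beta chains are parts of 1 total and so depend on each other. The share of ITGB6 with IL-4 + IL-13 was also below vehicle in 4 of 4 batches once the vehicle libraries of batches 2 and 4 were left out.

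How far the direct differences depend on single batches varied by gene. ITGA2, ITGB1 and ITGB6 kept an edgeR adjusted p under 0.05 with batch 2 or batch 4 left out and lost it with batch 1, 3, 5 or 6 left out, the highest adjusted p being 0.242, 0.290 and 0.178. ITGAV kept it only without batch 4, and its highest adjusted p was 0.333. The log2 fold changes stayed positive throughout, at 0.79 to 1.00 for ITGA2, 0.61 to 0.79 for ITGB1, 0.63 to 0.80 for ITGAV and 1.25 to 1.55 for ITGB6. Without the vehicle libraries of batches 2 and 4, all 4 genes passed, at edgeR adjusted p from 0.00111 (ITGA2) to 0.00656 (ITGB6). Against vehicle, ITGA1, ITGA2, ITGB1, ITGAV and ITGB6 did not pass without these 2 libraries either. With TGF-β they had log2 fold changes of -0.12, 0.43, 0.30, 0.31 and 0.84, at edgeR adjusted p of 0.377 (ITGB6) to 0.910 (ITGA1). With IL-4 + IL-13 they had -0.50, -0.50, -0.44, -0.44 and -0.60, at edgeR adjusted p of 0.196 (ITGA1) to 0.560 (ITGB6).

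In IL-6 cultures no member passed the test against vehicle. The largest log2 fold change among the members was -0.42 for ITGA2 (SE 0.19, unadjusted p = 0.0406, edgeR adjusted p = 0.850), lower than vehicle in 3 of 6 batches. ITGA11 had -0.12 (SE 0.21, edgeR adjusted p = 0.935) and ITGB6 -0.16 (0.928), while ITGB3 had 0.23 and was higher in 5 of 6 batches (0.850). Batch 2 weighed on these values: with it left out, ITGA11, ITGA10, ITGA1, ITGB1, ITGB5, ITGB6 and ITGB8 changed sign, all at an edgeR adjusted p of 1.

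The promoters of the 2 genes with the widest direct differences are shown because both held the same short element. The RefSeq (GRCh38.p14) promoter set used here held 9 of the 10 genes and lacked ITGB3. These 9 genes had 13 windows of the 250 bases before a start. The windows were searched on both strands for the Smad element CAGAC, the palindromic Smad element GTCTAGAC, the STAT6 element TTCNNNNGAA, the AP-1 element TGANTCA and the GC box GGGCGG. Of 35116 such windows over all genes, 38.0% held CAGAC, 0.182% GTCTAGAC, 5.38% TTCNNNNGAA, 6.57% TGANTCA and 42.6% GGGCGG. ITGA11 and ITGB6 each held a single TTCNNNNGAA in their only window, at bases -46 to -37 and -109 to -100 from the start, and no other of these elements. The windows follow 5′ to 3′ on the minus strand, at chr15:68432164-68432413 for ITGA11 and, without the 50 bases nearest to the start, at chr2:160200323-160200522 for ITGB6, with the element in capitals.
ITGA11: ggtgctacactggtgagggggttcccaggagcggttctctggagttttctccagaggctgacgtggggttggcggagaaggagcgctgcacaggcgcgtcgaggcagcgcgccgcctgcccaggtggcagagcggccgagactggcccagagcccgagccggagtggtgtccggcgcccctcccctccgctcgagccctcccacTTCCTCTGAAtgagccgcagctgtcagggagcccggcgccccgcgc
ITGB6: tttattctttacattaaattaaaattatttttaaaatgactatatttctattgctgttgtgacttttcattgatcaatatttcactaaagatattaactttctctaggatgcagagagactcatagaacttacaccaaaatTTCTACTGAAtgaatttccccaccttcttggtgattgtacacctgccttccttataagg
The windows differed in base composition, that of ITGA11 holding 71.2% G and C and that of ITGB6 being rich in A and T. One of the ITGAV windows also held TTCNNNNGAA, at -132 to -123 of its second start. CAGAC was found in windows of ITGA10, ITGA1, ITGB1, ITGAV and ITGB8, and GGGCGG in windows of ITGA2, ITGB1, ITGB5 and ITGB8. These matches describe letters and were not tested for binding.

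The genes around the integrins were taken from fixed lists. Of the other integrin subunits, 15 of 16 had enough reads, and 0 of the 15 were called in any comparison. The most abundant of them by mean level, ITGA3 (laminin receptor) and ITGA5 (fibronectin receptor), had log2 fold changes of 0.65 and 0.53 in the direct comparison, at edgeR adjusted p of 0.210 and 0.0834. The median of the 15 in the same comparison was 0.04, beside 0.56 for the 10 members. ITGAM, ITGB2 and ITGB7 among the 15 averaged under 10 reads, so the 2 medians do not compare genes of like abundance. Of the 18 genes listed for integrin activation and adhesion adaptors, such as TLN1 (talin) and VCL (vinculin), 0 were called in any comparison.

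Of the 11 genes listed for latent TGF-β and its carriers, 3 were higher in TGF-β than in IL-4 + IL-13 cultures. Each of the 3 was higher in 6 of 6 batches, and 0 of the 11 were called against vehicle. TGFB1, the ligand that the alpha-v receptors can release, differed by a log2 fold change of 1.26 (edgeR adjusted p = 0.0361). LTBP2, a matrix protein listed by family and not taken here as a carrier of latent TGF-β, differed by 1.60 (0.00439). LTBP4, which anchors latent TGF-β in the matrix, differed by 0.52 (0.00237). The median over the 11 genes was 0.38.

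Collagen chains differed among themselves. In the direct comparison 5 of 11 were called. COL4A1 and COL4A2, the main chains of basement membrane collagen, were higher with TGF-β by log2 fold changes of 0.77 (edgeR adjusted p = 0.0121) and 0.59 (0.0170), and the fibrillar chain COL5A1 by 0.91 (0.00731). COL1A1, the main fibrillar chain, was higher by 1.31 (0.0275), and is named here after its value was seen. COL6A1, of the beaded-filament collagen, had a log2 fold change of -1.22 in the direct comparison (0.00144), and it rose with IL-4 + IL-13 against vehicle by 1.32 (0.00137). Of the 9 RGD ligands with enough reads, 0 were called. Fibronectin (FN1) had log2 fold changes of 0.97 with TGF-β (edgeR adjusted p = 0.651) and 1.47 in the direct comparison (0.0633), and POSTN, encoding periostin, had 1.62 with IL-4 + IL-13 (0.209).

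**Figure D5:**
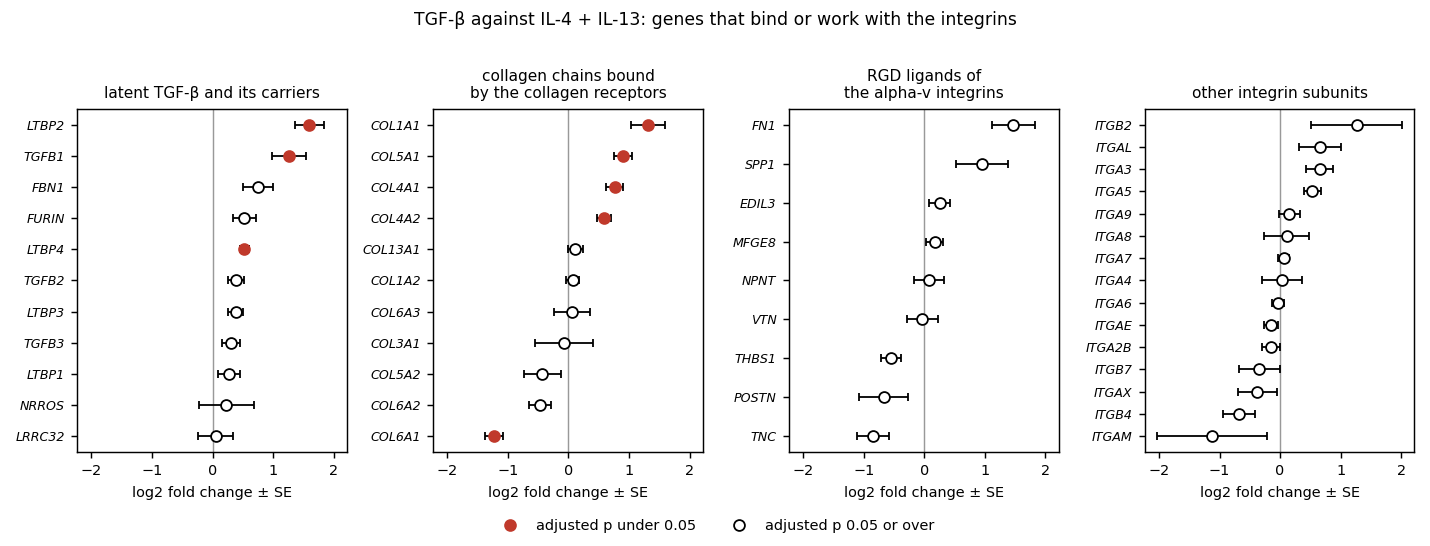
Log2 fold change ± SE between TGF-β and IL-4 + IL-13 (above 0, higher with TGF-β) for genes of 4 fixed lists, each panel sorted by value. Filled points passed an adjusted p of 0.05. They were LTBP2, TGFB1 and LTBP4 in the latent TGF-β list, and 5 collagen chains with COL6A1 as the only lower one. None of the RGD ligands or of the other integrin subunits passed.

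Genes that respond to the cytokines served as a check of exposure. Of 14 TGF-β response genes, 0 were called for TGF-β against vehicle and 6 were higher in TGF-β than in IL-4 + IL-13 cultures, including IL11 (1.83, edgeR adjusted p = 4.44e-04), TGFBI (2.34, 0.00164) and SKIL (0.45, 0.00164). Against vehicle, 1 of the 14 was called lower with IL-4 + IL-13, and their median log2 fold change was -0.40 there and 0.19 with TGF-β. TGFBI had mean levels of 14.09 in vehicle, 14.97 with TGF-β and 12.58 with IL-4 + IL-13. The direct differences thus include falls with IL-4 + IL-13 and do not check TGF-β exposure alone. Of 10 tested IL-4 and IL-13 response genes, 4 rose with IL-4 + IL-13: ALOX15 by 10.61 (7.78e-07), CCL26 by 7.83 (1.72e-05), CISH by 4.36 (4.60e-04) and IL13RA2 by 1.30 (0.00989).

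Markers of the cells in the culture were summed to see which moved along with ITGA11. The glial sum was 3420 to 5640 normalised counts in vehicle, 4296 to 6743 with TGF-β and 3198 to 5302 with IL-4 + IL-13, above vehicle in 6 of 6 TGF-β cultures and below it in 6 of 6 IL-4 + IL-13 cultures. The mesenchymal sum ranged from 58604 to 98764 in vehicle, 61669 to 123199 with TGF-β and 59842 to 72644 with IL-4 + IL-13. It was higher than vehicle in 4 of 6 and 2 of 6 batches. VIM made up most of that sum, with group means of 52412 to 63916 normalised counts. Over the 10 mesenchymal genes the median log2 fold change against vehicle was 0.04 with TGF-β and -0.23 with IL-4 + IL-13. With the vehicle libraries of batches 2 and 4 left out, the glial sum was above vehicle in 4 of 4 TGF-β cultures and below it in 4 of 4 IL-4 + IL-13 cultures, and the mesenchymal sum was higher in 3 of 4 and 1 of 4. Of its 10 genes only FAP, a fibroblast protease, was called, higher in TGF-β than in IL-4 + IL-13 cultures by 1.60 (0.0450). The neuron sum had a mean log2 ratio to vehicle of -0.001 with TGF-β and -0.015 with IL-4 + IL-13, and 0 of its 11 genes were called. KDR, an endothelial receptor, had a log2 fold change of -1.30 in the direct comparison (0.0195), the only call among the 6 endothelial and blood cell markers, and 0 of the smooth muscle, pluripotent or cell cycle markers were called. The part of these cells in the integrin differences was not tested.

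The genes most like ITGA11 were found among 15063 named genes with a mean of at least 50 normalised counts, by Pearson's r over the 24 libraries after subtraction of each batch's mean. Among the closest were LIF (r = 0.975), a cytokine of the IL-6 family, TGFBI (0.971) and TMEM92 (0.969). The genes most like ITGB6 were TSPAN2 (0.976), PLXND1 (0.960) and ITGB1 (0.957). For ITGB8 they were ARID5B (0.918), ALG9 (0.906) and TSPAN6 (0.899). Among the members, ITGB6 with ITGB1 and ITGB6 with ITGAV (both 0.957) had the highest r, ITGA11 with ITGB6 had 0.911, and ITGA2 with ITGB8 had the lowest at -0.58. These coefficients are descriptions over libraries that share batches and size factors, and the members' similarity to each other was not tested.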

How the data were processed

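RNA of 24 cultures was sequenced by a provider for the study. The study's methods give 1 sample per condition fewer than the labelled batches, and all labelled batches were used here. Per the labels, reads were trimmed with Trimmomatic 0.30 and aligned to GRCh38.p14 (the labels call this reference mouse, but it is a human build, and the table holds human symbols). The aligner, counter and strand setting are not given in the sources used here. The authors deposited raw read counts per gene, unnormalised, for 36468 entries, 13161 of them unnamed "NewGene" loci. The members and gene lists were chosen with earlier results of these data known, and all members are named. Of each other list, called genes are named, at most 4 per list and comparison by smallest p, and of lists with none, the 2 of highest mean level. Genes most like a member are the top 5 (ITGA11) or 3 (ITGB6, ITGB8) by r. Some genes that these rules name are not reported here.

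Counts were tested with edgeR 4.0.16 in R 4.3.3 (TMM, robust glmQLFit and glmQLFTest, batch plus treatment, total of at least 10), with all libraries but those of IL-6 in 1 fit, and all 24 libraries for the IL-6 comparison. SEs are the log2 fold change divided by the root of F. Levels use DESeq2 1.42.0 size factors and a pseudocount of 1, per-kb levels use GENCODE canonical transcripts, and positions and promoters come from RefSeq. Batch is labelled, and libraries of a batch deviated together (median r 0.388 over 36 pairs, lowest -0.030, against -0.122 over 240 pairs of different batches). On simulated counts for TGF-β against vehicle (28044 genes), 87% of genes changed by 1.5 and 99% of those changed by 3 (log2) were recovered. The counts were drawn from the fitted model with its batch terms, and the changes were placed in genes above a minimum mean. The largest member change in that comparison was 0.82 (ITGA11), below both sizes, so these rates do not cover the members. Alternatives were DESeq2, its size factors, other filters, no block, other libraries in the fit, first entry per symbol, and leaving out each batch.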

Additional observations from a re-analysis of the deposited data

Results flagged for a closer look

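Of 40 groups of 6 libraries (10 genes in 4 treatments), 3 held a library far from the other 5 by Dixon's test, where chance alone gives about 1 in 20 groups. In the vehicle library of batch 1, ITGAV had a level of 15.10 in log2(normalised counts + 1), against 13.16 to 13.65 in the other vehicle libraries, and ITGB5 had 12.88, against 11.28 to 11.74. In the IL-4 + IL-13 library of batch 2, ITGB6 had a level of 7.34, against 9.19 to 9.42 in the other 5.

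For 5 genes the effects of TGF-β and of IL-4 + IL-13 differed by a test of the difference itself (edgeR, batch as a term, adjusted over all genes). The log2 fold change of TGF-β against IL-4 + IL-13 was 2.41 for ITGA11, 1.44 for ITGB6, 0.92 for ITGA2, 0.74 for ITGB1 and 0.74 for ITGAV, each in the same direction in 6 of 6 batches. Both effects were measured against the same vehicle libraries, which this difference does not contain.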

How the results depend on the processing

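The replicate block (batch) is the study's own model. In the fit with no replicate block the number of genes called was 0 for TGF-β against vehicle (12 with it), 9 for IL-4 + IL-13 (93) and 23 for TGF-β against IL-4 + IL-13 (524), with 0, 0 and 1 members (ITGA11), and ITGA10 and ITGB3 under IL-4 + IL-13 became -0.10 and -0.021. DESeq2 called 295, 387, 132 (IL-6) and 1228 genes in the 4 comparisons, with 1 member (ITGA11) for TGF-β against vehicle. With no filter on low counts, 2 members were called in the direct comparison. With all 24 libraries in the fit, 102, 186 and 874 genes were called, and with the first entry of each symbol 24 for TGF-β. With each batch left out in turn, the number of genes called ranged from 0 to 20 (TGF-β), 21 to 131 (IL-4 + IL-13) and 118 to 739 (direct), and of members from 0 to 1 (IL-4 + IL-13) and 1 to 5 (direct). The change of ITGA10 under IL-4 + IL-13, 0.00009, had either sign: -0.014 with DESeq2, -0.0081 with its size factors in edgeR, -0.0028 with no filter, -0.0042 with filterByExpr, -0.041 with all libraries and -0.0039 with first entries.

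Values that crossed 0 with a batch left out ranged from -0.11 to 0.24 (ITGA10) and -0.10 to 0.051 (ITGB8) under IL-4 + IL-13, from -0.31 to 0.048 (ITGA10) and -0.0044 to 0.22 (ITGB5) under TGF-β, and from -0.075 to 0.27 for ITGB3 in the direct comparison. Under IL-6 they ranged from -0.22 to 0.10 (ITGA11), -0.50 to 0.014 (ITGA10), -0.34 to 0.17 (ITGA1), -0.13 to 0.089 (ITGB1), -0.20 to 0.060 (ITGB5), -0.28 to 0.13 (ITGB6) and -0.087 to 0.15 (ITGB8).

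Alternatives chosen after seeing the data were these. With only the 2 groups compared in the fit, 0 genes were called for TGF-β and 27 for IL-4 + IL-13, with 0 members (ITGA11 at -1.59, edgeR adjusted p = 0.121). In batches 3 to 6, 67 genes were called for TGF-β and 1217 in the direct comparison, with 0 members for IL-4 + IL-13. There ITGA10 was 0.14 under TGF-β, ITGB5 0.029 under IL-4 + IL-13 and ITGB3 -0.20 in the direct comparison, and under IL-6 ITGA11 was 0.24, ITGA10 0.13, ITGA1 0.24, ITGB1 0.20, ITGAV 0.074, ITGB5 0.17, ITGB6 0.25 and ITGB8 -0.11. Without the vehicle libraries of batches 2 and 4, 29, 157 and 1284 genes were called, ITGA10 was 0.0093 under TGF-β, and ITGA1, ITGB6 and ITGB8 were 0.028, 0.010 and -0.0997 under IL-6. The cause of these changes was not tested. None of the changes of sign was in a called value. The call of ITGA11 between TGF-β and IL-4 + IL-13 held in 16 of 16 alternatives, that of ITGA11 under IL-4 + IL-13 in 11, ITGB6 in 11, ITGA2 and ITGB1 in 10 and ITGAV in 7. The difference of ITGB8 between TGF-β and IL-4 + IL-13 passed in 1 of 16 (batches 3 to 6, -0.38). That of ITGB5 passed in 2 of 16, among them the fit without the vehicle libraries of batches 2 and 4. Vehicle levels, shares and marker sums without these libraries were also added after seeing the data. ITGA10 rested on 37 to 201 reads a library.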
